A study of Arabidopsis thaliana with 6 samples.

Results

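The Arabidopsis genes named CHR for chromatin remodelling encode SNF2-type ATPases, and 8 of them could be followed in siliques, the seed pods of the plant. They were taken as every probe set that the annotation of the Affymetrix ATH1 array names with a single gene whose symbol is chr and a number. The rule found 9 probe sets of 22746, for CHR17, CHR18, CHR23, CHR24, chr31, CHR34, CHR40 and CHR42, with a pair of probe sets for chr31. RNA came from whole pods of accession Col-1 grown in a glasshouse under continuous light. Young pods and old pods were each measured on 3 arrays. All 6 samples carry the same label for tissue (maturing to senescing siliques) and for stage (the plant's first pod had shattered), so only the titles separate the ages. A whole pod holds valves, seeds and a dehiscence zone. In such bulk RNA, fewer cells of a type and less RNA per cell cannot be told apart. Nothing says that the replicates came from separate plants, so p-values measure only the spread between these samples.

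SNF2-type ATPases spend ATP to slide, evict or exchange nucleosomes, and so decide which stretches of DNA other proteins can reach. The family splits by partner. ISWI-type members space nucleosomes, SWI/SNF-type members open promoters, and the plant-specific CLASSY proteins bring RNA polymerase IV to chromatin. That polymerase starts the small RNAs that direct DNA methylation. In Arabidopsis, chr31 is also known as CLSY3, CHR40 as CLSY4 and CHR42 as CLSY2, and CLSY3 is best known from ovules and developing seeds.

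Of the 8 genes, chr31, CHR40 and CHR17 fell from young to old pods, and none rose. Values are MAS5 signals, and a change is the difference of mean log2 signals, old minus young, tested with limma over the whole array. A probe set was tested when it lay above the 40th percentile of its array on at least 3 of the 6 arrays. That left 5 CHR probe sets of 5 genes, of which 3 passed at an adjusted p of 0.05, all lower in old pods. Over all 14277 probe sets tested, 22.0% passed, 12.3% as lower and 9.68% as higher. Both chr31 and CHR40 entered the test through their young arrays alone, so this count of 3 is no support for a trend in the family. With no filter, 4 of the 9 probe sets passed as lower, those of the same 3 genes, against 7.82% lower over 22746 probe sets. The old arrays all lay under the young arrays for 6 of the 9 probe sets, against 19.9% over all probe sets. The 6 probe sets belong to 5 genes, since both of chr31 count. Among them are CHR18 and CHR34, dim genes whose groups overlapped by rank within the array. CHR18 was brighter than 30.1% to 37.4% of the array in young pods and 21.7% to 34.0% in old pods. CHR34 was at 28.6% to 44.6% and 22.1% to 37.2%. This count too is no support for a trend in the family.

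**Figure D1:**
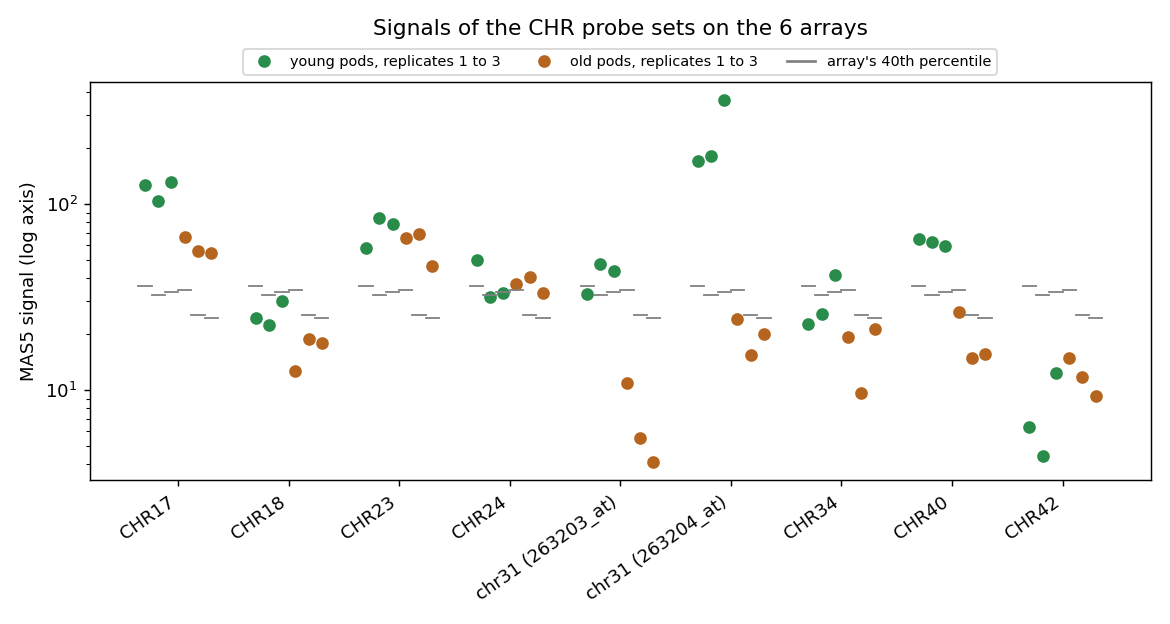
MAS5 signal (log axis) of each CHR probe set on each array, with young pods in green, old pods in brown and a grey tick at that array's 40th percentile. Both chr31 probe sets, CHR40 and CHR17 have all old arrays under all young arrays, while CHR18 and CHR42 lie under the tick on all 6. Heights of different probe sets are not comparable as amounts of RNA.

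Among the CLASSY genes, chr31 (locus AT1G05490) had the lowest log2 change of the 5 tested CHR genes. Its order against CHR40 is not settled, since the old signals of both give only a bound. Its brighter probe set, 263204_at, read 171.3, 182.1 and 362.0 in young pods. In old pods it read 24.0 and 15.4 in replicates 1 and 2, with replicate 3 between them. The lowest young array was thus far above the highest old array. Young replicate 3 stood above the other young arrays, and the group means were 238 ± 107 and 19.8 ± 4.31 (SD, n = 3). All 3 old arrays lay under the percentile, where a signal gives only a bound. Against that bound the mean log2 signals put chr31 at least 8.12-fold lower on these old arrays. This figure leaves out the spread between arrays. From the signals themselves the log2 change was -3.52 (SE 0.33, 95% interval -4.30 to -2.75, limma adjusted p = 0.000656). Only 1.24% of the tested probe sets had a change this low or lower. On the young arrays this probe set was brighter than 82.0% to 92.9% of the array, and on the old arrays than 29.7% to 36.2%.

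The second chr31 probe set, 263203_at, was dimmer and gave the same order. It read 32.8, 47.8 and 43.7 in young pods and 10.9, 5.5 and 4.1 in old pods. It passed the percentile only on young replicates 2 and 3 and so was not tested. With no filter its log2 change was -2.71 (SE 0.51, limma adjusted p = 0.0102). Against the percentile its fall came to 1.48-fold, far short of the bound from the brighter probe set, because its young signals lay close to the percentile themselves. The 1.48-fold is no strict bound, since young replicate 1 was itself under the percentile.

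CHR40 (AT3G24340), which acts beside chr31 in reproductive tissue, was the other CLASSY gene that fell. Its signals were 64.9, 62.5 and 59.8 in young pods, the tightest group of any CHR probe set, and 26.4, 14.8 and 15.7 in old pods. The groups were well apart, with old replicate 1 the highest of the old arrays. Its means were 62.4 ± 2.55 and 19.0 ± 6.45 (SD, n = 3), and its log2 change was -1.77 (SE 0.33, 95% interval -2.52 to -1.01, limma adjusted p = 0.00797). All old arrays were under the percentile, so the fall between these arrays is bounded at 2.26-fold or more, against 3.41-fold from the signals. That bound too leaves out the spread between arrays.

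CHR42 (AT5G20420), the remaining CLASSY gene with a named probe set, was too dim to compare. It read 6.3, 4.4 and 12.3 in young pods and 14.8, 11.7 and 9.3 in old pods, under the percentile on every array, and the groups overlapped. CHR34 (AT2G21450), a member of the same subgroup of the family, read 22.6, 25.8 and 41.7 in young pods and 19.2, 9.7 and 21.2 in old pods. Only young replicate 3 was above the percentile. The old arrays all lay below the young ones, by a narrow margin. With no filter neither gene passed (limma adjusted p = 0.478 for CHR42 and 0.282 for CHR34).

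CHR17 (AT5G18620), an ISWI-type ATPase that spaces nucleosomes and holds back flowering together with its close paralog CHR11, was the only CHR gene to fall while above the percentile on all 6 arrays. Its signals were 125.9, 104.1 and 132.0 in young pods and 66.4, 55.8 and 54.3 in old pods. The groups did not overlap and each was compact, at 121 ± 14.7 and 58.8 ± 6.60 (SD, n = 3). The fall was 2.05-fold (log2 change -1.03, SE 0.20, 95% interval -1.49 to -0.58, limma adjusted p = 0.00936). CHR11 was not analysed here, and whether the CHR17 probes also read CHR11 transcripts was not tested.

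CHR23 (AT5G19310), a SWI/SNF-type ATPase that acts in meristem upkeep and growth under stress, did not pass. It read 58.0, 84.2 and 78.1 in young pods and 65.6, 69.1 and 46.6 in old pods, above the percentile on all arrays. The groups overlapped, with the highest old arrays inside the young range. The log2 change was -0.28 (SE 0.25, limma adjusted p = 0.464), and its 95% interval of -0.87 to 0.30 leaves room for a moderate change either way.

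CHR24 (AT5G63950), which the reference gene table lists with the repair-factor synonyms ERCC6 and RAD26, lay close to the percentile throughout. It read 50.3, 31.6 and 33.4 in young pods and 37.2, 40.5 and 33.1 in old pods. The old values all lay inside the young range. Its log2 change was -0.03 (SE 0.30, 95% interval -0.71 to 0.65, limma adjusted p = 0.957). CHR18 (AT1G48310) read 24.3, 22.3 and 30.2 in young pods and 12.6, 18.9 and 18.0 in old pods. It was under the percentile on all 6 arrays, and though the groups did not overlap it did not pass with no filter (log2 change -0.64, limma adjusted p = 0.353).

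**Figure D2:**
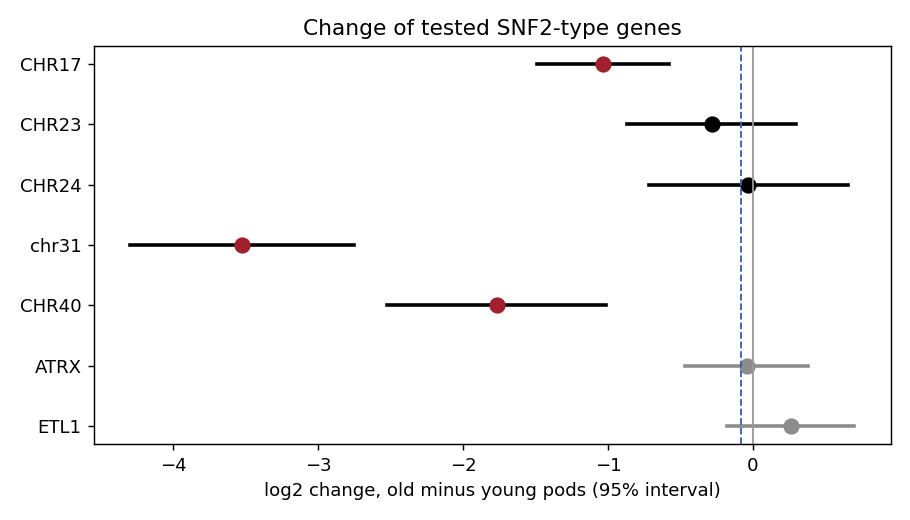
Log2 change from young to old pods for the 5 tested CHR genes and for ATRX and ETL1 (grey), with 95% intervals from limma on 3 arrays a group. Red points passed the adjusted p of 0.05, and the dashed line is the median of all tested probe sets at -0.08. The intervals of chr31, CHR40 and CHR17 lie wholly below that line, and those of the other 4 genes cross it.

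The scaling of the arrays moves all changes together. The median change over all tested probe sets was -0.08. Relative to it, chr31 was at -3.44, CHR40 at -1.69, CHR17 at -0.95, CHR23 at -0.20 and CHR24 at 0.05. Centring every array on its median put that overall median at 0.18 and cut the lower calls from 56.1% to 37.6% of all calls. The 3 CHR falls still passed there, while CHR24 turned from -0.03 to 0.23.

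**Figure D3:**
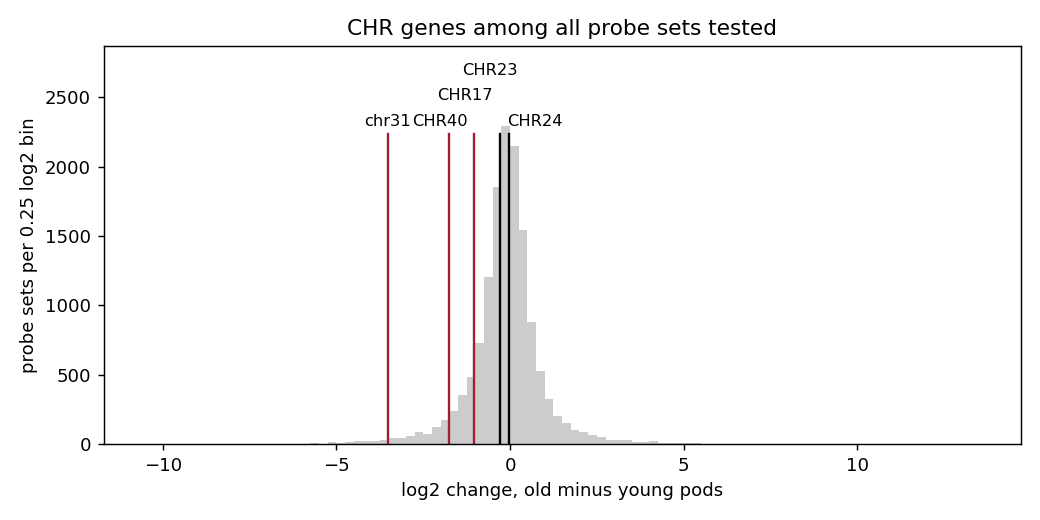
Number of probe sets per bin of log2 change (old minus young pods, all 14277 tested), with vertical lines at the 5 tested CHR genes, red where the change passed. The line of chr31 stands in the far lower tail, CHR40 and CHR17 in its shoulder, and CHR23 and CHR24 in the bulk.

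The size of the change was also compared between members. For each of the 10 pairs of tested CHR genes, the within-array log2 difference was compared between old and young pods by a two-sided exact permutation test. In 9 pairs the 3 old differences did not overlap the 3 young ones, which gives an exact permutation p = 0.1, the smallest that 3 arrays against 3 allow (Benjamini-Hochberg adjusted p = 0.111). No pair could therefore pass. As measured, the fall of chr31 exceeded that of CHR40 by 1.75 on the log2 scale (SE 0.40) and that of CHR17 by 2.49 (SE 0.33). These sizes use signals under the percentile for the old arrays of chr31 and CHR40. With such signals raised to the percentile, an alternative added after seeing the data, the gap of chr31 to CHR17 was 1.99, and 8 pairs did not overlap. The gap of chr31 to CHR40, 1.85, is then only their difference in young pods, since all old signals of both become the percentile. It does not tell which of them fell more, though this pair is among the 8. The gap between CHR40 and CHR17 went from 0.73 (SE 0.21) to 0.14 with overlapping groups, so these falls cannot be ranked. The pair of CHR23 and CHR24 overlapped, with a difference of -0.25 (SE 0.39, exact permutation p = 0.5).

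The changes were also read by replicate number, in 3 young and old pairs. The log2 change of chr31 was -2.84, -3.56 and -4.17 in replicates 1, 2 and 3. That of CHR40 was -1.30, -2.08 and -1.93, and that of CHR17 was -0.92, -0.90 and -1.28. All 9 values are falls, the smallest of them in CHR17. Their sign was fixed in advance, since the old arrays of each of these genes all lay under its young arrays, so only the sizes inform. CHR23 was at 0.18, -0.29 and -0.75, and CHR24 at -0.44, 0.36 and -0.01, so neither kept a direction.

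**Figure D4:**
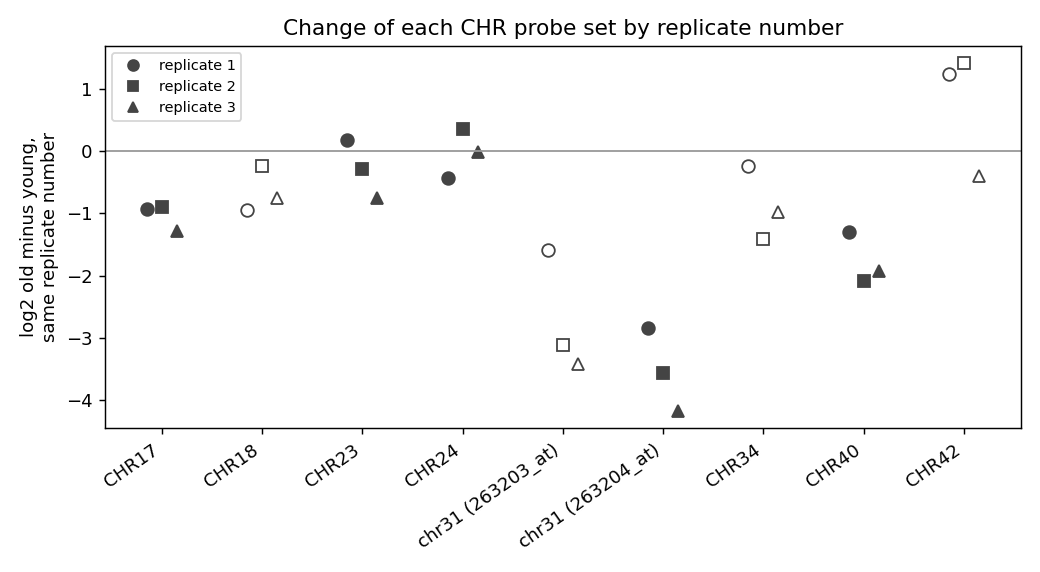
Log2 change between the old and the young array of the same replicate number for each CHR probe set, with circles, squares and triangles for replicates 1, 2 and 3. Filled marks are tested probe sets and open marks those too dim to test. All marks of chr31, CHR40 and CHR17 lie below 0, and those of CHR23, CHR24 and CHR42 lie on both sides.

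Replicate 1 differed from the others in the spiked hybridisation controls, bacterial transcripts added to every sample. Their mean log2 signal was 9.77 and 9.96 on the young and old replicate 1 arrays and 8.04 to 8.60 on the other 4. In replicates 2 and 3 alone, chr31 was at -3.87, CHR40 at -2.004 and CHR17 at -1.09, and all 3 passed (limma adjusted p = 0.000463, 0.00312 and 0.012). Scaling the arrays on these controls kept the sizes (-3.59, -1.84 and -1.10) and raised the SE to 0.84, 0.86 and 0.85. Under it chr31 still passed (limma adjusted p = 0.00102), and CHR40 and CHR17 did not (0.386 and 1.00), while calls over the whole array dropped to 4.25%.

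Companions of the CHR proteins were counted in the same fit from 9 lists of partners and related chromatin factors. Few could be read, since only 14 of 139 genes could be found by name on the array and 12 were bright enough to test. Of these 12, 1 passed, as lower, against 22.0% of all probe sets tested, and their median change was 0.05 against -0.08. No gene of the list of 27 for RNA-directed DNA methylation, the pathway that the CLASSY proteins feed, had a named probe set. The same holds for the ISWI partners of CHR17. Their behaviour beside chr31, CHR40 and CHR17 was not analysed here.

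Of 21 further SNF2-type ATPases that the reference table gives a CHR number, 2 had a named probe set, and neither passed. ATRX (CHR20), a relative of the mammalian histone H3 depositing factor, read 113.7, 107.0 and 110.9 in young pods and 110.4, 120.4 and 92.8 in old pods. Its log2 change was -0.04 (SE 0.18, limma adjusted p = 0.893). ETL1 (CHR19) read 116.7, 99.4 and 100.1 in young pods and 120.5, 147.0 and 112.8 in old pods, at 0.26 (SE 0.19, limma adjusted p = 0.369). Both genes had overlapping groups and lay above the percentile on all 6 arrays.

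The SWI/SNF partners that could be tested, SWI3A, BSH and CHC1, did not pass either. BSH, the SNF5-type core subunit, read 69.6, 71.1 and 83.4 in young pods and 77.8, 69.4 and 76.4 in old pods, with a log2 change that rounds to 0.00 (SE 0.19). CHC1 was at 0.11 and SWI3A at 0.05. SWC2, a subunit of the SWR1 complex that installs the histone variant H2A.Z, was at 0.31 with groups that did not overlap and an adjusted p = 0.324 from limma. DME, the DNA glycosylase that removes methylated cytosine, was at 0.14 (SE 0.25) by the brightest of its 3 probe sets. By replicate number it was at 0.65, -0.11 and -0.12. The histone chaperones ASF1A (SGA2 in the reference table) and ASF1B were at 0.04 and -0.72 (limma adjusted p = 0.911 and 0.13). The linker histone HIS1-3 was at -0.52 (limma adjusted p = 0.246). The groups overlapped for all 3. LIG4, the ligase of end joining, was at 0.06.

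The companion that passed was ULT1 (AT4G28190), a trithorax-group factor that opposes Polycomb silencing. Its signals were 325.1, 177.8 and 119.6 in young pods and 67.2, 27.6 and 27.1 in old pods. The groups did not overlap, and replicate 1 was the highest in both. The log2 change was -2.37 (SE 0.46, limma adjusted p = 0.0101), a call that ended with scaling on the hybridisation controls, where the change was -2.44 and the SE 0.85 (limma adjusted p = 0.0858).

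Genes whose profile over the 6 arrays was closest to chr31 were sought among 1098 tested genes with a symbol, by Pearson correlation of log2 signals. The 5 closest were LSH5 (r = 0.998), UGT78D1 (r = 0.996), scpl20 (r = 0.995), IAA31 (r = 0.993) and EXPB3 (r = 0.992). LSH5 is a nuclear protein of the ALOG family, UGT78D1 a flavonol glycosyltransferase, scpl20 a serine carboxypeptidase-like protein, IAA31 an auxin response repressor and EXPB3 a beta-expansin. LSH5 read 354.0, 334.4 and 625.9 in young pods and 44.1, 27.5 and 32.2 in old pods. Like chr31, it was highest in young replicate 3 and highest among old arrays in replicate 1, a likeness that the choice by correlation favours. The old order of chr31 rests on signals under the percentile. Within the CHR genes, r with chr31 was 0.978 for CHR17, 0.953 for CHR40, 0.952 for the second chr31 probe set, 0.522 for CHR23 and -0.04 for CHR24. Such values over 6 arrays in 2 separate groups rest mainly on the gap between the groups, and they are given as a description.

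**Figure D5:**
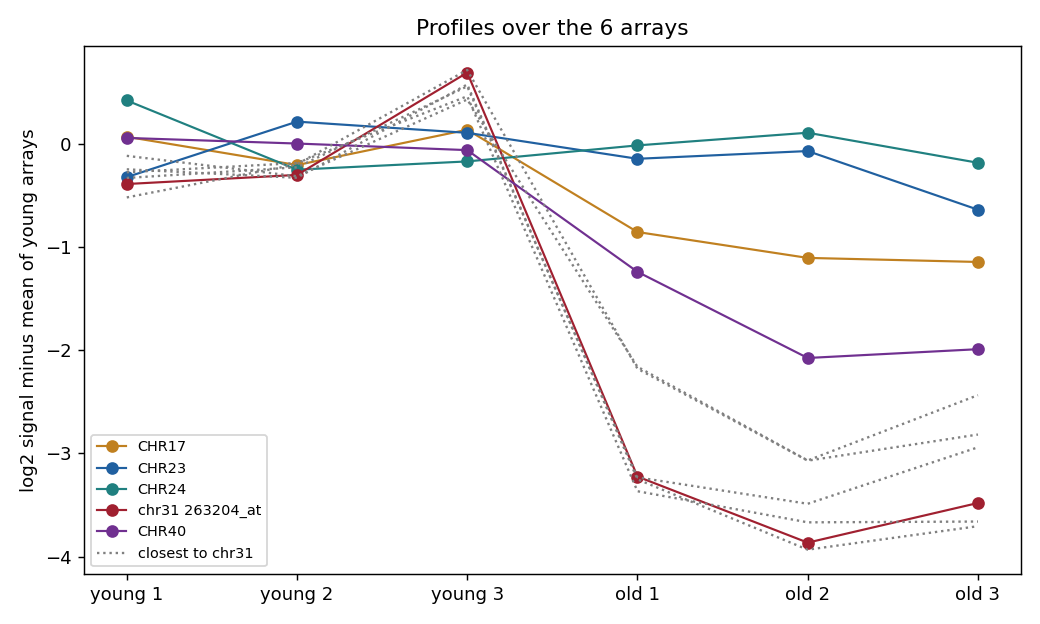
Log2 signal on each array minus the gene's mean over the young arrays, for the 5 tested CHR genes (coloured) and the 5 genes closest in profile to chr31 (dotted). Lines only join the arrays of a gene. chr31 and the dotted genes rise together at young replicate 3 and drop on the old arrays, CHR40 and CHR17 drop less, and CHR23 and CHR24 stay near 0.

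Markers of the tissues in a pod moved between the groups as well. Of the seed coat list, 2 of 11 genes had a named probe set, BAN and DELTA-VPE. Both fell, against 12.3% lower over all probe sets tested, and their summed signal was 3733 to 6473 in young pods and 40.4 to 228 in old pods. The 4 tested genes of the 28 for dividing cells fell (AUR1, AUR2, AUR3 and PRL), with summed signals of 313 to 358 and 115 to 146, against 12.3% lower over all probe sets tested. AUR2 and AUR3 entered the test through their young arrays alone, so this count is no support for a trend in the list. AUR1 and AUR3 lost their calls under several settings, among them median centring (limma adjusted p = 0.0891 and 0.0743), and AUR2 lost its call without young replicate 2 (limma adjusted p = 0.0779). All 3 tested genes of the 11 for green valve tissue fell, against the same 12.3%, from summed signals of 3337 to 6702 down to 1629 to 1920. However, LHCB4.2 missed the threshold whenever a replicate 2 or 3 array was left out (highest limma adjusted p = 0.0864). Most genes of the seed coat and green tissue lists had no named probe set, so these counts do not speak for whole tissues. Scaling on the hybridisation controls ended the calls of the dividing cell and green tissue genes without reducing their changes, and their SE rose. PRL was at -1.80 (SE 0.22) before and at -1.87 (SE 0.84) after, and PSAN at -2.22 (SE 0.36) and -2.29 (SE 0.92). Of the embryo and storage list, 2 of 16 genes had a named probe set. PAP85 rose, against 9.68% higher over all probe sets tested, and OLEO3 did not pass. PAP85 entered the test through its old arrays alone, so its call is no support for a trend in the list. The summed signal was highest in old replicate 1, at 5919. The endosperm list had 3 named genes of 11 (AGL62, IKU2 and AGL28), under the percentile on every array, and the pollen list had 1, AMS, likewise. Of the valve margin list, 3 of 10 genes had a named probe set, SPT, ALC and ADPG1. ADPG1 rose, against the same 9.68%, and the others did not pass. No named marker had a signal of 0 on any array, but a signal under the percentile is not taken as measured here. The part of these tissues in the falls of chr31, CHR40 and CHR17 was not tested.

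RNA quality was read from 2 control transcripts. On every array their 3 prime signal was well above their 5 prime signal. The log2 ratio of 3 prime to 5 prime signal was 2.56 to 3.98 in young and 1.91 to 3.75 in old pods for GAPDH. It was 1.74 to 2.27 and 1.24 to 2.59 for ubiquitin, so the groups overlapped for both. The part of RNA quality in the changes was not tested.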

How the data were processed

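Total RNA of 6 pod samples, 3 young and 3 old, was hybridised to ATH1 arrays. The deposited values are intensities on a linear scale, 1 per probe set, and the submitters' processing notes name MAS5. The 2% trimmed mean was 100 on every array, so a common scaling preceded deposit and a change in most transcripts would not show. Detection calls were not used here. In their place, an array's 40th percentile (signals of 24.3 to 36.5) served as the limit for a measured signal. Signals under 0.1 were set to 0.1 and taken as log2. The groups were tested in R 4.3.3 by limma 3.58.1 (lmFit, eBayes with a variance trend), with Benjamini-Hochberg adjustment over the 14277 probe sets tested. For an "at least" fold, signals of the dim group under the percentile were first raised to it. Such a fold compares mean log2 signals and carries no interval. Of 22810 probe sets, 64 were controls. The platform annotation named 1 gene for 13513, of which 13436 were found in the TAIR10.1 gene table. Where several probe sets named a companion gene, the brightest was used. Members, lists and tests were chosen with earlier results of these data known. Every CHR gene is named, with up to 4 called companions a list or else the 2 brightest, other companions being named after their values were seen, and the 5 genes closest to chr31. Of 291 list names, 36 did not resolve to a gene. The fit was tested on simulated data in 5 runs with 200 changed probe sets of 14277. There, 10.2% of 2-fold and 60.8% of 4-fold changes were recovered, with 4.96% false calls. The simulated noise was independent between arrays, and far fewer probe sets changed than the 22.0% called in these data. These rates therefore do not carry over to the real comparison. Young and old arrays of replicate number 1, 2 and 3 deviated together from their group means (r = 0.286, 0.113 and 0.119), each above the 0.1 used here for pairing by number. Only replicate 1 stood apart: young 2 with old 3 and young 3 with old 2 correlated at 0.187 and 0.114. Arrays of 1 group correlated at 0.858 to 0.951, and none were duplicates. The number of arrays limits the precision. Alternatives were no filter, low signals raised to the percentile, quantile, median and hybridisation control scaling, no variance trend, a replicate block, a term for replicate 1, replicates 2 and 3 alone, and leaving out each array.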

Additional observations from a re-analysis of the deposited data

How the results depend on the processing

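The falls of chr31, CHR40 and CHR17 kept their direction under all 16 alternatives, but only the scalings could have turned it. The old arrays of each gene all lay under its young arrays, so choosing among arrays or raising low signals could not. The filter, the variance trend, the replicate block and the replicate 1 term leave the change as it was. The fall of chr31 passed under each of the 15 alternatives with a test (limma adjusted p up to 0.00523). Scaling on the hybridisation controls left 1 CHR call of 3, 0 companion calls of 1 (1 at an unadjusted limma p under 0.05) and 607 of 3145 calls over the array, 570 of them among the 3145. Leaving out 1 array gave 3 CHR calls in each case and 1736 to 3602 calls over the array. The count over the array was 1812 without young replicate 2, 1736 without old replicate 2, 1975 without young replicate 3 and 2047 without old replicate 3. CHR17 and CHR40 came closest to the threshold without young replicate 3 and young replicate 2 (limma adjusted p = 0.0421 and 0.0429). In the fit with a replicate block, chr31, CHR40 and CHR17 passed (limma adjusted p = 0.00172, 0.0128 and 0.0151), 3480 probe sets passed in all, and no CHR call changed. CHR23 turned from -0.28 to 0.178 in the replicate 1 pair, and CHR24 changed sign under quantile and median scaling (0.22 and 0.23). After raising low signals to the percentile, the changes were -3.02 for chr31 and -1.17 for CHR40. CHR18, CHR34, CHR42 and the second chr31 probe set are limited by signals near or under the percentile.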
